A study of Homo sapiens with 51 samples.

Results

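After transduction of OVOL2 into 3 mesenchymal pancreatic ductal adenocarcinoma (PDA) lines, most genes that had set them apart from 2 epithelial PDA lines still did so. KP4, PANC1 and PK45H libraries that received a lentivirus carrying OVOL2 together with one carrying M2RTTA (9 libraries, 3 per line) were set against untreated HPAFII and PATU8988S libraries (6 libraries, 3 per line). These 15 libraries, of 51 in the series, were chosen by their labels alone. M2RTTA is a transactivator that drives tetracycline-inducible promoters when doxycycline is present. The transduced cells received virus at a multiplicity of infection of 2 with 8 µg/ml polybrene. Selection in 2.5 µg/ml puromycin and induction with doxycycline, used at 0.6 µg/ml, began on the following day. The reference libraries had none of these agents, so virus, selection and doxycycline cannot be told apart from line in the comparison itself. For that reason the distance before OVOL2 was measured with the 9 libraries of the same 3 lines that received mCherry, a fluorescent protein, with M2RTTA under the same selection. Every library came from 100 ng of total RNA after 6 days of culture and was sequenced by PLATE-seq, which counts reads near the 3′ end of transcripts. Each line is 1 cell line, and the labels do not say that its 3 libraries were separate cultures.

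OVOL2 is a zinc-finger repressor of epithelial tissues. It is known for holding down ZEB1, itself a repressor of E-cadherin and other epithelial genes, and so for opposing the epithelial-mesenchymal transition. In that transition cells lose junctions, apical-basal polarity and keratins, and gain vimentin, matrix and motility genes. Pancreatic cancer lines also differ along a second axis, called classical, on which differentiated lines express mucins, trefoil factors and gastrointestinal transcription factors.

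A starting difference was the log2 difference between the reference lines and the mCherry libraries, and a remaining difference was that between the reference lines and the OVOL2 libraries. Positive values mean higher in the reference lines. A difference was called at an adjusted p under 0.05 and at least 2-fold (1 on the log2 scale), and the OVOL2 effect (OVOL2 against mCherry) was called on the adjusted p alone. A gene with a starting difference was kept if the remaining difference was called in the same direction. It was closed if OVOL2 changed it towards the reference lines and the 95% interval of the remaining difference lay within 2-fold. A closed gene could thus still differ from the reference lines at an adjusted p under 0.05. The starting and remaining differences share the 6 reference libraries, so they are given side by side and are not independent. Levels are given as CPM, the counts of a gene relative to its library total after TMM scaling. Differences are on the log2 scale, with SE for their standard error. The edgeR quasi-likelihood test gave the p-values, adjusted after Benjamini and Hochberg over 14941 genes. With 3 lines against 2 there are 10 ways to choose the reference pair and a smallest exact p of 0.1 over lines, so the adjusted p-values measure the spread between libraries and not that between lines.

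Totals of the 15 libraries ran from 1165399 to 7117704 counts. The lowest total belonged to HPAFII replicate 2, which also stood apart from its mates: its mean correlation with them was 0.868 and its median ratio to them was 0.631 over genes higher in the reference lines and 1.14 over genes lower there, against 0.956 over all genes tested. The counts over all genes and over the gene lists are therefore given without it as well. Ductal markers (KRT7, KRT8, KRT18, KRT19, EPCAM and SOX9 among them) were detected in all 15 libraries, with summed levels of 4647 to 14327 CPM in the reference lines. After OVOL2 these sums were 976 to 1085 in KP4, lowest of the lines, PANC1 had 2001 to 2453 and PK45H 4658 to 4761. Of the other cell types' defining markers, INS and PTF1A were at 0 in 14 of 15 libraries and CPA1 and PNLIP in 13, while PTPRC, CD3E and PECAM1 did not exceed 8.35 CPM. Other members of those lists were detected in all 15 libraries, among them CPB1 (acinar, up to 77.7 CPM), SYP (endocrine, up to 55.5) and LYZ (immune, up to 29.2). The summed acinar, endocrine, immune and endothelial markers each stayed at or below 81.0 CPM.

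A set of 4 genes, chosen with their outcomes known, shows the range of outcomes. Its promoter sequences are given here because OVOL2 and ZEB1 act on promoters. CRB3, a transmembrane component of the apical Crumbs polarity complex, was closed. AP1M2, an epithelial adaptor subunit for basolateral sorting, moved part of the way. For RAB25, an epithelial GTPase of recycling endosomes, and LAD1, the anchoring protein ladinin, no OVOL2 effect was called. The 250 bases before the RefSeq start (GRCh38.p14) are written 5′ to 3′ on the gene's strand, with capitals on the E-box CACCTG or its complement CAGGTG, the site of ZEB factors, and on the OVOL core CCGTTA or its complement TAACGG. The windows are chr19:6464021-6464270 (plus strand) for CRB3, chr19:10587313-10587562 (minus strand) for AP1M2, chr1:156060910-156061159 (plus strand) for RAB25 and chr1:201399325-201399574 (minus strand) for LAD1.
CRB3: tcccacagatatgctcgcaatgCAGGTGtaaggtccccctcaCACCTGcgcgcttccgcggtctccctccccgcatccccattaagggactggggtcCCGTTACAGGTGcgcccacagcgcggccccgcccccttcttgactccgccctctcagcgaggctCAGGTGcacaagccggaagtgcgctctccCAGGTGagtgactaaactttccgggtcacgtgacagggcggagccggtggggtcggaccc
AP1M2: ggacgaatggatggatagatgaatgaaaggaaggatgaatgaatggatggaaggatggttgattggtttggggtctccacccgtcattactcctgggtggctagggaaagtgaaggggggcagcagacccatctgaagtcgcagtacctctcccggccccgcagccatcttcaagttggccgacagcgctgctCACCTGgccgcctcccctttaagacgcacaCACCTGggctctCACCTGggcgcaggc
RAB25: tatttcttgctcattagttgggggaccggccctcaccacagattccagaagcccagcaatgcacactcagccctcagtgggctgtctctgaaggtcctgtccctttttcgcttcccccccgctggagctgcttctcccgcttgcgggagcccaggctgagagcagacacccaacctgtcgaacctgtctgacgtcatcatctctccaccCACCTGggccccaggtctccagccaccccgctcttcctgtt
LAD1: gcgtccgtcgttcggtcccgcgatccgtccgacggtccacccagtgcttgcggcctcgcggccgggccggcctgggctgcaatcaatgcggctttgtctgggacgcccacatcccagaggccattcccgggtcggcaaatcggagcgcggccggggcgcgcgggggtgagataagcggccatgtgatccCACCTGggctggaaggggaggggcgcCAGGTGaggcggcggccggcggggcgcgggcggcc
The CRB3 window held 5 E-boxes and 1 OVOL core, which lies directly before the third E-box without overlap. AP1M2 held 3 E-boxes, LAD1 held 2 and RAB25 held 1, and no OVOL core was found in these 3 windows. An E-box was present in 17.5% of all 35116 RefSeq windows of this length and an OVOL core in 2.45%. The matches are a description of the letters and were not tested for binding. Whether such sites go with the outcome was not tested, and 4 chosen genes cannot show it.

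Of 14941 genes tested, 2381 (15.9%) differed between the OVOL2 libraries and the reference lines. Reference levels were higher for 1263 genes (8.45%) and lower for 1118 (7.48%). Before OVOL2 the counts were 1279 (8.56%) and 969 (6.49%). Of the 1279 genes that started higher in the reference lines, 852 (66.6% of them, and 5.7% of all genes tested) were kept, 95 (0.636% of all) were closed and 332 could be placed in neither class. Within the kept genes, OVOL2 had moved 136 towards the reference lines and 47 away from them, and no effect was called for 669. Of the 969 genes that started lower, 524 (54.1%, and 3.51% of all) were kept, 132 (0.883% of all) were closed, 312 were undecided and 1 was reversed. OVOL2 moved 355 of the first set (27.8%) and 359 of the second (37.0%) towards the reference lines, beside 14.6% of all genes raised and 15.7% lowered by it. The starting difference and the OVOL2 effect share the 9 mCherry libraries. Error in those libraries can thus bring a gene into a set and also move it towards closing. Part of the excess over all genes is therefore built in, as is part of the share of the starting difference covered, given below. A further 294 genes (1.97%) came to be higher in the reference lines with OVOL2 and 380 (2.54%) came to be lower, without a called starting difference. The median gene had covered 18.4% of its starting log2 difference where the reference lines were higher and 23.4% where they were lower. Without HPAFII replicate 2, 926 and 609 genes were kept and 100 and 132 were closed.

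**Figure D1:**
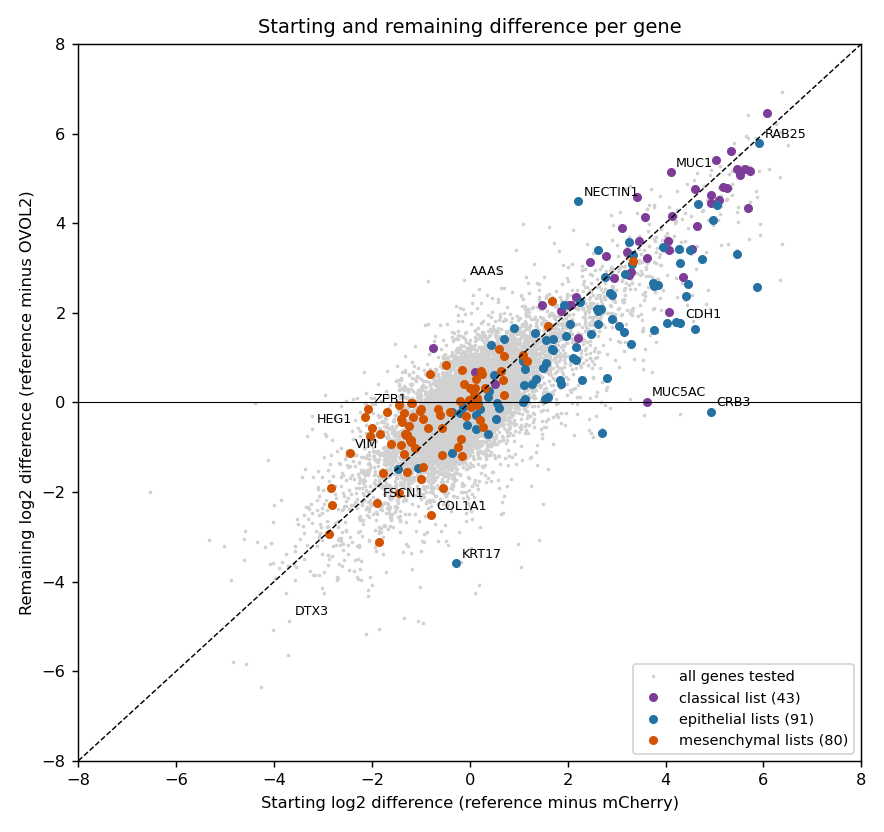
Each point is 1 gene: the x axis is its starting log2 difference (reference lines minus mCherry) and the y axis its remaining log2 difference (reference lines minus OVOL2). Points on the dashed line have equal starting and remaining differences and points on the horizontal line at 0 reached the reference mean, so CRB3 (4.93 to -0.21) lies near 0 and RAB25 (5.91 to 5.78) on the dashed line; the axes share the 6 reference libraries.

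The 8 epithelial lists (91 genes tested) held 69 genes that started higher in the reference lines, and 49 of these were kept, 11 closed and 9 undecided. The median difference over all 91 went from 2.16 to 1.42, while that of all genes was -0.01 and -0.03. The 4 mesenchymal lists (80 genes tested) held 31 genes that started lower in the reference lines. Of these, 7 were kept, 11 closed and 13 undecided, and the median over all 80 went from -0.84 to -0.33. With genes that had no called starting difference counted too, 13 of the 80 were lower in the reference lines than with OVOL2, beside 7.48% of all genes. These include 5 opened genes and the transcription factor SNAI1 (-2.97 without HPAFII replicate 2, adjusted p = 0.0025). Of 43 classical genes tested, 40 started higher and 39 were kept, with none closed and a median over all 43 of 4.05 before and 3.60 after OVOL2. Without HPAFII replicate 2, the epithelial counts were 49 kept and 9 closed, the classical count was 38 kept, and the mesenchymal counts were 13 kept and 9 closed. Of the kept epithelial genes 35 of 49, of the kept classical genes 30 of 39 and of the kept mesenchymal genes 6 of 7 also differed from HPAFII and PATU8988S each taken alone, beside 504 of all 852 kept genes that started higher and 263 of all 524 that started lower. Against PATU8988S alone, 23 mesenchymal genes were kept and 3 closed, and 3 epithelial genes were closed. Against HPAFII alone, 5 mesenchymal genes were kept and 6 closed, and 8 epithelial genes were closed. Over all genes, 8.71% were higher and 5.88% lower in HPAFII than with OVOL2, and 11.1% and 9.88% in PATU8988S.

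**Figure D2:**
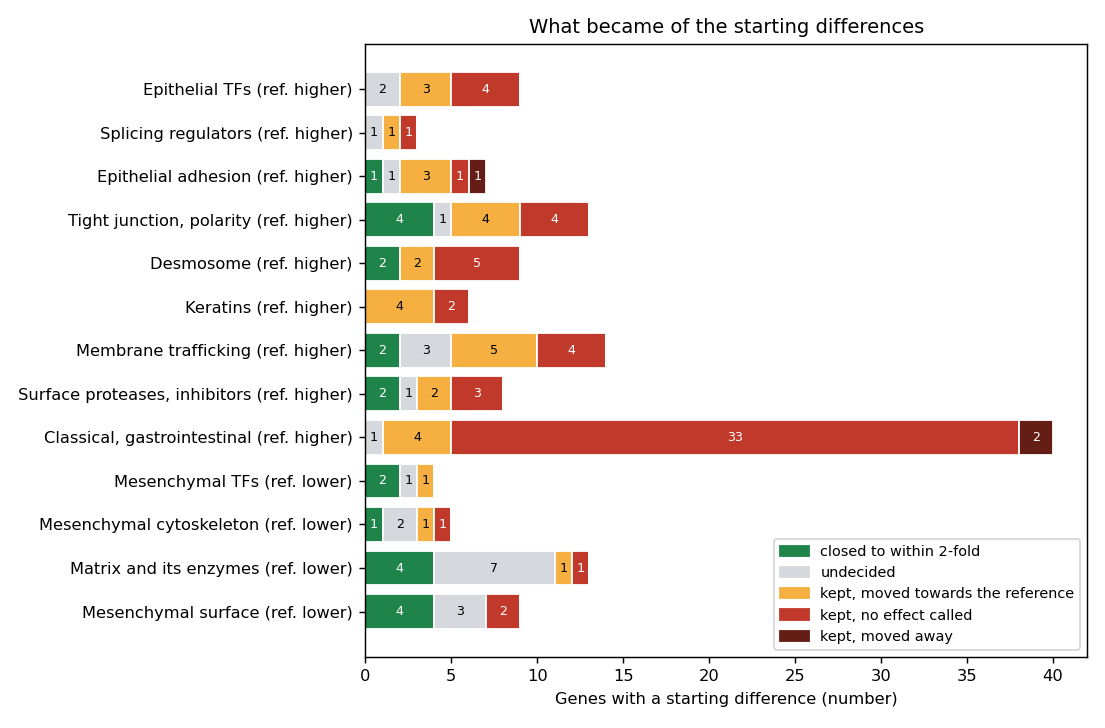
Horizontal bars give, for each list, the number of genes with a called starting difference (x axis, genes) split into closed, undecided and 3 kinds of kept. The classical bar is almost wholly kept (39 of 40), whereas the tight junction bar holds 4 closed of 13. The mesenchymal transcription factor bar holds 2 closed of 4 (ZEB1 and QKI, the latter no transcription factor), and 1 without HPAFII replicate 2. Both classes use a fixed 2-fold limit and so depend on the size of the starting difference. Its median over the tested genes of these 3 lists was 4.05, 2.01 and -1.06.

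**Figure D3:**
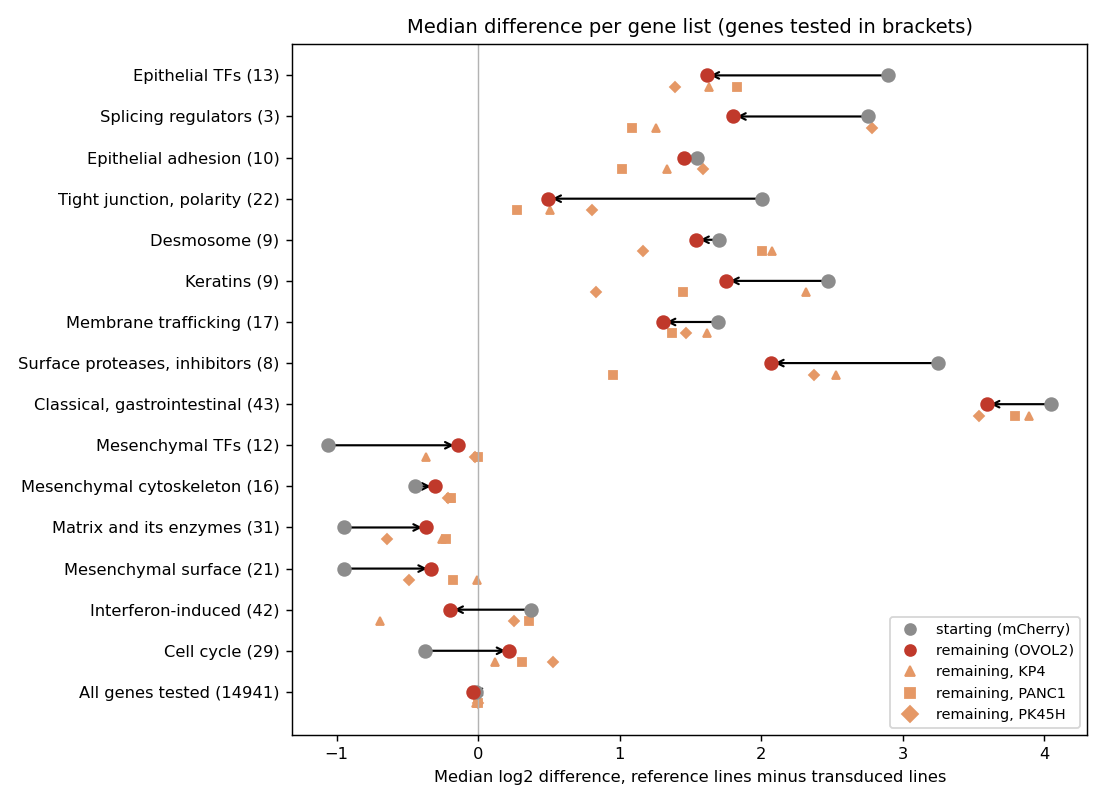
Median log2 difference between reference and transduced lines over the tested genes of each list (x axis), with the starting value in grey, the remaining value in red and the remaining value of each line as a small symbol. The tight junction median went from 2.01 to 0.50 and the classical median from 4.05 to 3.60, while the median of all genes tested stayed within 0.05 of 0.

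Among epithelial transcription factors, 9 of 13 tested started higher in the reference lines and 7 were kept, also without HPAFII replicate 2. OVOL2 itself was one of them. Its level was 2.16, 10.4 and 2.32 CPM in KP4 with the OVOL2 virus, 1.45, 2.96 and 2.22 in PANC1 and 4.62, 4.62 and 4.21 in PK45H, against 0 to 1.73 CPM in the mCherry libraries. HPAFII had 7.06, 1.67 and 6.97 CPM and PATU8988S 20.4, 20.3 and 27.8. OVOL2 thus rose over mCherry on the mean of the lines (2.16, SE 0.39, adjusted p = 0.000114), with 3.10 in KP4, 1.97 in PK45H and 1.40 in PANC1, where the effect alone was not called (adjusted p = 0.227). The transduced range overlapped that of HPAFII, and all 9 transduced libraries lay below PATU8988S. Whether the 3′ reads include the transgene's own transcript is not given in the sources used here.

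ELF3 and EHF are epithelial ETS factors and GRHL2 is a grainyhead factor that sustains junction genes. ELF3 stood at 56.0 to 137 CPM in the reference lines (median 124), at 6.54 to 18 with OVOL2 (median 9.14) and at 3.16 to 11.5 with mCherry (median 5.88). The reference and OVOL2 ranges did not overlap, and the remaining difference was 3.43 (SE 0.21, adjusted p = 4.84e-13) although OVOL2 had raised the gene (0.85, adjusted p = 0.00217). EHF was at 1.84 to 10.5 CPM with OVOL2 and 0.221 to 7.48 with mCherry, against 20 to 83.8 in the reference lines, and no OVOL2 effect was called (adjusted p = 0.278). GRHL2 counts were low throughout, with 0 to 1.66 CPM after OVOL2, 0 to 0.78 with mCherry and 1.34 to 6.68 in the reference lines. Its starting and remaining differences were 3.26 and 3.59. KLF5 (2.90 and 2.40) and SPDEF (4.30 and 3.12) were also kept with no called effect.

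The RNA-binding proteins that set epithelial splicing parted in the same comparison. ESRP1 had 9.80, 11.9 and 22.2 CPM in KP4, 13.6, 17.9 and 17 in PANC1 and 2.01, 4.37 and 6.08 in PK45H after OVOL2, against 0.39 to 2.65 in the mCherry libraries. HPAFII had 25.7, 10 and 26.5 CPM and PATU8988S 47.7, 59.2 and 57.7. Only HPAFII replicate 2 fell into the OVOL2 range. The OVOL2 effect was 2.40 (SE 0.30, adjusted p = 5.82e-07) and the remaining difference 1.80 (SE 0.27, adjusted p = 4.52e-06). By line it was 1.26 for KP4, 1.09 for PANC1 and 3.06 for PK45H. ESRP2 moved from 2.17 to 0.95, which is under the 2-fold limit and left it undecided. Without HPAFII replicate 2 it moved from 2.28 to 1.08 (adjusted p = 5.79e-05) and was kept, as were all 3 splicing regulators. No effect was called for RBM47 (-0.05, adjusted p = 0.867), which also takes part in mRNA editing. It had 3.41 to 7.03 CPM with OVOL2, 3.12 to 11.4 with mCherry and 24.2 to 58.9 in the reference lines.

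Of the 7 adhesion genes that started higher, 3 were kept after a rise, 1 was kept with no called effect (CDH3), 1 was kept after a fall (NECTIN1), 1 was closed and 1 was undecided, and without HPAFII replicate 2 these counts were the same. CDH1, which encodes E-cadherin, had 27.1, 25.8 and 29.7 CPM in KP4 after OVOL2, 41.4, 16.4 and 25 in PANC1 and 23.5, 28 and 24.1 in PK45H. The mCherry libraries had 0.745 to 7.02 CPM, HPAFII 86.6, 35.1 and 108, and PATU8988S 98.1, 105 and 115. OVOL2 raised CDH1 in all 3 lines (2.53, SE 0.25, adjusted p = 1.12e-08), and a remaining difference of 1.77 (SE 0.24, adjusted p = 1.14e-06) was of like size in KP4 (1.73), PANC1 (1.73) and PK45H (1.85). EPCAM, an epithelial adhesion glycoprotein, behaved alike: 147 to 290 CPM with OVOL2, 19.4 to 54.3 with mCherry and 355 to 761 in the reference lines, with no overlap between any of the 3 sets. Its remaining difference was 1.76 (SE 0.15, adjusted p = 1.54e-10). The catenin CTNND1 was the 1 adhesion gene closed. Without HPAFII replicate 2 it moved only from 1.12 to 0.76, within the 2-fold limit but still different from the reference lines (adjusted p = 1.26e-07).

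NECTIN1, an immunoglobulin-type adhesion molecule, fell with OVOL2. Its level was 0 to 2.57 CPM with OVOL2, 1.46 to 7.91 with mCherry and 6.68 to 30.8 in the reference lines, so that the difference grew from 2.21 to 4.49 (SE 0.31, adjusted p = 5.60e-12). PERP, a desmosomal tetraspan protein, also fell with OVOL2 and opened a difference of 1.43.

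Polarity and tight junction genes held 4 closed genes of 13 that started higher (4 of 12 without HPAFII replicate 2). CRB3 had 5.81, 6.54 and 9.03 CPM in KP4, 7.75, 14.2 and 11.9 in PANC1 and 7.64, 4.62 and 3.74 in PK45H after OVOL2. HPAFII had 9.63, 8.35 and 6.70 CPM and PATU8988S 4.97, 5.12 and 5.62, so that every reference value lay within the OVOL2 range. The remaining difference was -0.21 (SE 0.28, adjusted p = 0.606). No mCherry library had more than 3 CRB3 counts, so the size of its starting difference (4.93) depends on the prior count. LLGL2, a basolateral polarity protein, had a median of 6.87 CPM with mCherry, 22.7 with OVOL2 and 36.5 in the reference lines, a remaining difference of 0.50. F11R (junctional adhesion molecule A) moved from 1.09 to 0.01, and LSR, the lipolysis-stimulated receptor of tricellular junctions, from 1.85 to 0.50.

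The claudins, the strand-forming proteins of tight junctions, were not among the closed genes. CLDN7 had 12.6, 12.6 and 12.4 CPM in KP4, 73.4, 96.2 and 94.6 in PANC1 and 13.5, 7.45 and 9.12 in PK45H with OVOL2, against 84.4 to 323 in the reference lines. Only PANC1 reached the lower end of the reference range. CLDN7 rose over mCherry (1.55, adjusted p = 6.55e-08) and kept a difference of 3.20 (SE 0.18, adjusted p = 5.70e-14). CLDN3 reached 37.2 to 53.0 CPM in KP4 and PANC1, within the reference range of 20 to 101, and stayed at 0.402 to 0.936 in PK45H, where the remaining difference was 6.46. CLDN4 (2.16 to 1.23) and TJP3 (4.60 to 1.63), a scaffold protein, also rose and were kept. CLDN18, a gastric claudin, was high in PATU8988S alone (64.1 to 89.4 CPM, against 1.07 to 4.18 in HPAFII and 0.503 to 2.72 with OVOL2), so its place among kept genes is a difference from that line only.

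Calls for 2 junction genes rested on 1 library. MARVELD2, the tricellular protein tricellulin, had 7084 CPM in HPAFII replicate 2 and 75.3 to 111 in the other reference libraries, and PKP2, a desmosomal plakophilin, had 1623 CPM there and 38.2 to 64.8 elsewhere. Without that library the remaining difference of MARVELD2 was -0.21 and no longer called (adjusted p = 0.778), and that of PKP2 was 1.56 (adjusted p = 0.0458) with no starting difference called. Such isolated values, at least 50 CPM and 10-fold above both mates, occurred for 268 genes in the 24 OVOL2, mCherry and reference libraries. They touched 2 of the 49 kept epithelial genes, none of the kept classical or mesenchymal genes and 21 of all kept genes.

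In the desmosome, JUP (plakoglobin) and PPL (periplakin) were closed. JUP had a median of 42.4 CPM with mCherry, 105 with OVOL2 and 106 in the reference lines, a remaining difference of 0.08 (SE 0.17). DSP, the desmoplakin that ties desmosomes to keratins, rose to 4.32 to 19.5 CPM from 1.99 to 10.7 and kept a difference of 1.87 against 17.5 to 59.2 in the reference lines. PKP3 moved from 3.05 to 1.70. The desmosomal cadherins DSG2, DSG3 (on low counts) and DSC2 and the linker EVPL were kept with no OVOL2 effect called. DSC2, for example, had 1.33 to 5.61 CPM with OVOL2, 1.66 to 4.89 with mCherry and 5.92 to 22.5 in the reference lines.

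The simple-epithelial keratins KRT7, KRT8, KRT18 and KRT19 rose on the mean of the lines and were all kept, and none of the 6 keratins that started higher was closed. KRT19 had 33.7, 29.0 and 24.8 CPM in KP4, 125, 195 and 170 in PANC1 and 289, 245 and 230 in PK45H with OVOL2. HPAFII had 936, 373 and 1015 CPM and PATU8988S 273, 261 and 260, so PK45H reached PATU8988S while KP4 had a remaining difference of 3.96. The OVOL2 effect on KRT19 was called in PK45H alone (1.91), with 0.46 in KP4 and -0.56 in PANC1, and that on KRT18 likewise (1.04, with 0.13 and -0.29). Over the lines the remaining difference was 2.09 (SE 0.14, adjusted p = 3.77e-12). KRT7 was likewise closer in PK45H (-0.24) than in KP4 (3.33) and PANC1 (3.15), and its mean remaining difference was 3.23 against HPAFII and 0.92 against PATU8988S. KRT20 and KRT23, keratins of gastrointestinal epithelium, were high in HPAFII and low in PATU8988S. KRT17, a keratin of basal and stress-responsive epithelium, opened in the other direction. With OVOL2 it had 16.3 to 19.9 CPM in KP4, whereas PANC1 had 1.45 to 3.85 and PK45H 0.402 to 2.31, beside 0 to 1.99 with mCherry and 0 to 1.18 in the reference lines, where no library had more than 4 counts.

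**Figure D4:**
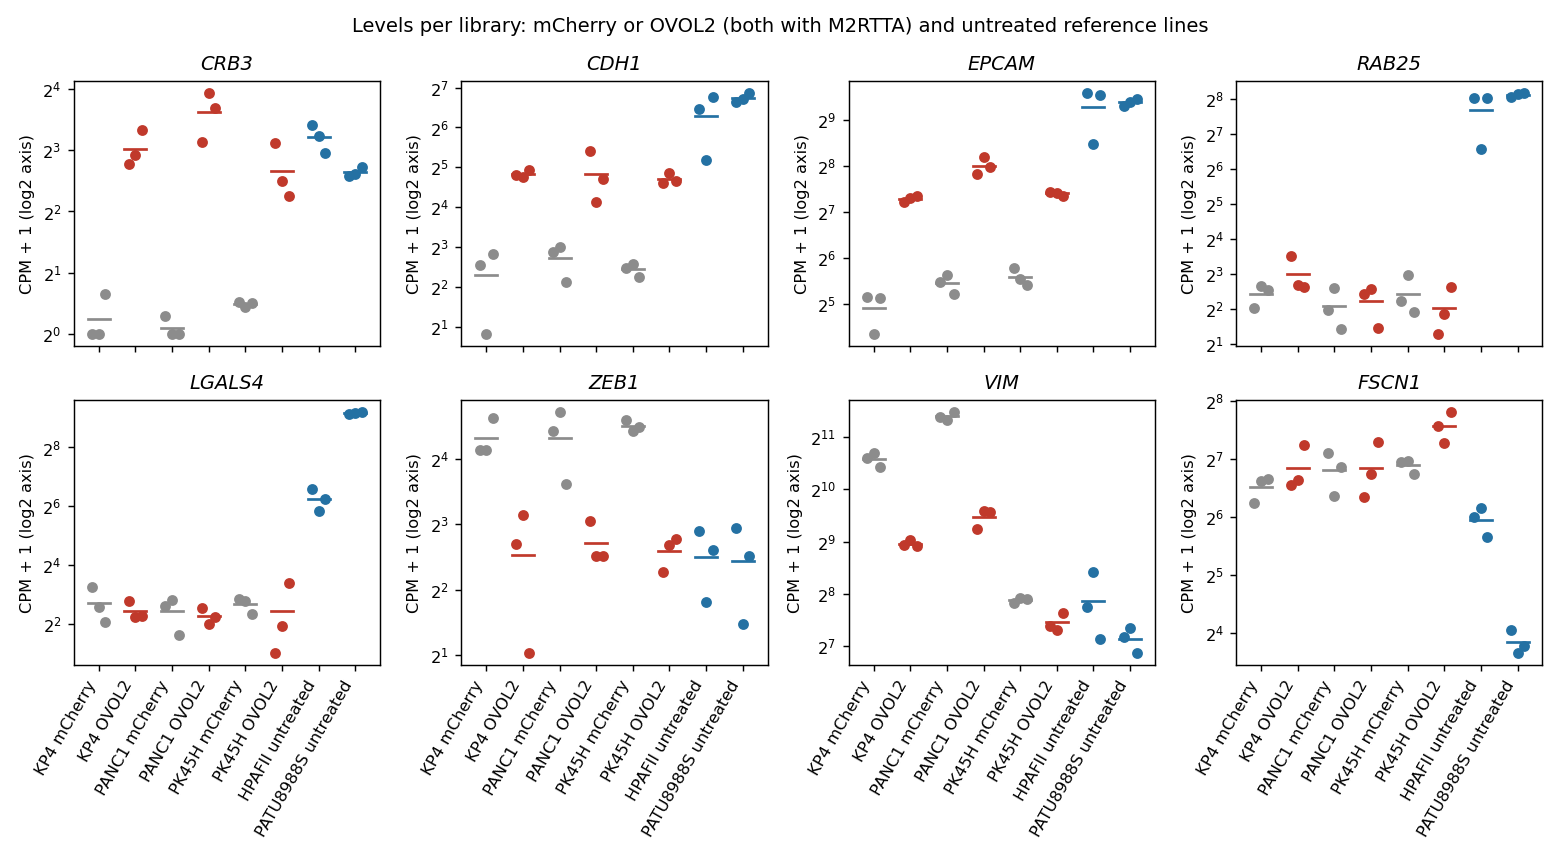
Levels of 8 genes in each library (points) with group means (lines), as CPM + 1 on a log2 axis, for mCherry (grey), OVOL2 (red) and untreated reference lines (blue). OVOL2 libraries reach the blue points for CRB3 and ZEB1, lie between grey and blue for EPCAM and, apart from an overlap with HPAFII replicate 2, for CDH1, and stay with grey for RAB25, LGALS4 and FSCN1; for VIM, KP4 and PANC1 stay above the reference lines.

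Membrane trafficking genes held 14 that started higher, with 9 kept and 2 closed (EPS8L2 and ARHGEF16). With HPAFII replicate 2 left out, 10 were kept and EPS8L2 was undecided. RAB25, whose promoter is shown above, had 10.3, 5.36 and 5.16 CPM in KP4, 4.36, 4.89 and 1.73 in PANC1 and 1.41, 2.57 and 5.15 in PK45H with OVOL2. The mCherry libraries had 1.66 to 6.75 CPM, HPAFII 261, 93.6 and 256 and PATU8988S 262, 282 and 285. OVOL2 and mCherry ranges overlapped, and both lay far below every reference library. The remaining difference was 5.78 (SE 0.28, adjusted p = 4.51e-15) and the OVOL2 effect 0.13 (SE 0.27, adjusted p = 0.776). AP1M2 rose to 2.06 to 29.4 CPM from 0.221 to 7.70 (effects of 3.36, 1.85 and 1.27 by line, the last, PK45H, not called alone), and remained 3.30 (SE 0.25) below the reference libraries at 61.0 to 114. MAL2, a component of apical transcytosis, moved from 3.85 to 2.63. EPN3, MYO5C and MYO1D were kept with no called effect.

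Of 8 surface proteases and inhibitors that started higher, 5 were kept, 2 closed and 1 undecided (5, 1 and 2 without HPAFII replicate 2). The Kunitz-type inhibitors SPINT1 and SPINT2 were closed: SPINT1 had a median of 8.32 CPM with mCherry, 41.8 with OVOL2 and 58.6 in the reference lines, a remaining difference of 0.55 (SE 0.17, adjusted p = 0.00966). Without HPAFII replicate 2, SPINT1 was at 0.65 and no longer met the closed criterion. ST14 (matriptase), a protease those inhibitors block, rose from 0 to 0.719 CPM to 0.503 to 5.63 and remained 2.57 (SE 0.40) below the reference lines. TMPRSS4, a related serine protease, and SERPINB5 (maspin) were kept with no called effect. TMPRSS4 had 5.33 to 9.05 CPM with OVOL2, 3.33 to 9.07 with mCherry and 83.5 to 232 in the reference lines, a remaining difference of 4.43 (SE 0.20, adjusted p = 1.24e-15).

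The classical genes were the block with the most kept members. Of 40 that started higher, 33 were kept with no called OVOL2 effect, 4 were kept after a rise (CEACAM6, SDR16C5, GATA6, CAPN8) and 2 after a fall (MUC1, PLS1). The counts were 32, 4 and 2 without HPAFII replicate 2. In 33 of the 39 the remaining difference was called in each of the 3 lines, beside 414 of all 852 kept genes that started higher. In 22 every reference library lay above every OVOL2 library, beside 279 of those 852. Kept genes are chosen for a called difference, so the share over all genes tested was lower, at 3.16% (2.04% lay wholly below). LGALS4, a galectin of gut epithelium, had 1.01 to 9.59 CPM in the OVOL2 libraries, with a median of 3.71. The mCherry libraries had 2.08 to 8.61 CPM, HPAFII 94.3, 56 and 74.3 and PATU8988S 562, 581 and 588. Its difference was 5.34 before and 5.62 after OVOL2 (SE 0.30, adjusted p = 3.54e-14).

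ANXA10, an annexin of gastric epithelium, had the largest remaining difference among the kept genes named by the rule (6.47, SE 0.38), with 0 to 1.54 CPM after OVOL2 against 16.7 to 107. MUC1, a transmembrane mucin, fell with OVOL2 from a median of 3.42 to 1.55 CPM, and its difference grew from 4.11 to 5.14 (SE 0.20, adjusted p = 9.17e-17). AGR2, a disulfide isomerase needed for mucin folding, stood at 4.12 and 4.16. Among gastrointestinal transcription factors FOXA2 (1.86 and 2.05), FOXA1 (2.16 and 2.36) and PDX1 (2.45 and 3.13) were kept with no called effect. GATA6, an endodermal factor, rose by 0.77 and kept 1.44, and its remaining difference was 0.76 against HPAFII and 2.11 against PATU8988S. The secreted mucin MUC5AC was the 1 classical gene left undecided: it had 0.168 to 3.22 CPM with OVOL2 and 0 to 4.45 in the reference lines. It was also among the 5 of 43 classical genes that OVOL2 raised. Without HPAFII replicate 2 its difference went from 3.79 to 0.20 (adjusted p = 0.842), on low counts.

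On the mesenchymal side the transcription factor ZEB1 was closed. It had 5.48, 7.88 and 1.03 CPM in KP4, 7.27, 4.74 and 4.69 in PANC1 and 3.82, 5.39 and 5.85 in PK45H with OVOL2, against 11.2 to 25.3 in the mCherry libraries. HPAFII had 6.42, 2.51 and 5.09 CPM and PATU8988S 6.71, 1.78 and 4.74. OVOL2 and reference ranges overlapped, and all 9 OVOL2 libraries lay below all 9 mCherry libraries. The OVOL2 effect was -1.94 (adjusted p = 7.08e-07) and the remaining difference -0.14 (SE 0.32, adjusted p = 0.779). In the same list QKI, an RNA-binding protein and no transcription factor, was closed at -0.73, although in PANC1 it remained at -1.52. That call was lost without HPAFII replicate 2 and held in 24 of 39 settings. MSRB3, a methionine sulfoxide reductase, was kept: 8.31 to 28.4 CPM with OVOL2, 13.8 to 35.4 with mCherry and 1.56 to 8.35 in the reference lines, a difference of -2.82 before and -2.30 after.

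VIM, the intermediate filament vimentin, was kept on the mean of the lines but not in each of them. KP4 had 485, 521 and 483 CPM with OVOL2, PANC1 602, 768 and 759 and PK45H 166, 158 and 199. HPAFII had 213, 342 and 140 CPM and PATU8988S 144, 162 and 115. PK45H lay within the reference range and had started there (226 to 240 CPM with mCherry), whereas KP4 and PANC1 fell from mCherry levels of 1363 to 2839 CPM and stayed above every reference library. The remaining difference was -1.46 for KP4, -1.98 for PANC1 and 0.05 for PK45H, with a mean of -1.13 (SE 0.13, adjusted p = 1.18e-07). It was -0.77 against HPAFII alone, under the 2-fold limit. The OVOL2 effect on VIM differed between the lines (adjusted p = 0.0050 by a test with 2 degrees of freedom), as it did at 4.03% of all genes.

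Other cytoskeletal and surface genes were kept with no called effect. FSCN1, the actin bundler fascin, had 80.7 to 223 CPM with OVOL2 and 74.8 to 137 with mCherry, and 11.6 to 70.2 in the reference lines. No reference library reached the OVOL2 range, and the difference was -1.90 before and -2.24 after (SE 0.17, adjusted p = 2.35e-11). CAV1 (caveolin-1) was at 482 to 706 CPM with OVOL2 and 115 to 413 in the reference lines, a remaining difference of -1.57. ENG (endoglin), a co-receptor for TGF-beta ligands, kept -2.93 on low counts. The surface genes CD44, ITGA5, FGFR1 and EMP3 were closed: ITGA5, the fibronectin-binding integrin subunit, had a median of 25.6 CPM with mCherry, 11.2 with OVOL2 and 8.27 in the reference lines. The closed call of ITGA5 held in 30 of 39 settings, and against PATU8988S alone the gene was kept (-1.23).

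Matrix genes held 13 that started lower in the reference lines, of which 2 were kept (COL6A2 among them), 4 closed (COL3A1, LOX, LOXL2 and PLAU) and 7 undecided. Without HPAFII replicate 2, 15 started lower, of which 3 were kept, 3 closed and 9 undecided, LOX among the last. LOXL2, a collagen cross-linking oxidase, had 2.84 to 14.3 CPM with OVOL2, 12.4 to 50.5 with mCherry and 3.73 to 10.9 in the reference lines, a remaining difference of -0.32 (SE 0.17). COL1A1, the chain of type I collagen, rose with OVOL2 in all 3 lines. It had 36.7, 37.2 and 45.4 CPM in KP4, 34.4, 48.9 and 61.3 in PANC1 and 19.9, 23.4 and 23.9 in PK45H, against 4.31 to 24.5 with mCherry and 3.34 to 9.92 in the reference lines. This opened a difference of -2.51 (SE 0.20, adjusted p = 5.01e-11). The sum of 7 fibroblast markers, COL1A1 among them, was 9.47 to 25.1 CPM in the reference lines and 30.4 to 70.4 with OVOL2, and its part in these results was not tested. COL6A1, BGN, MYL9 and L1CAM also opened in that direction. Some genes of these lists were higher in the reference lines: MMP1, TGFBI and NRP2 were high in HPAFII alone, with remaining differences of 6.2, 4.37 and 3.42 against HPAFII and 0.11, 0.18 and -0.01 against PATU8988S, and CNN2 (1.06) was also kept.

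Leaving out HPAFII replicate 2 added AXL, CALD1, FOXC2, MSN, COL6A1 and L1CAM to the kept mesenchymal genes and none was lost. Leaving out PANC1 replicate 1 or PK45H replicate 1 of the OVOL2 libraries, or PATU8988S replicate 1 or 2, each gave 7 closed mesenchymal genes in place of 11.

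Beyond the lists, named kept genes higher in the reference lines included LAD1, ALOX5, TESC, CDHR5 and DDC. LAD1 had 1.55 to 3.41 CPM with OVOL2, 0.288 to 3.51 with mCherry and 79.4 to 189 in the reference lines, a difference of 6.37 before and 6.04 after (SE 0.29, adjusted p = 4.51e-15), called in each line. ALOX5, the arachidonate lipoxygenase of leukotriene synthesis, had 0 to 1.64 CPM with OVOL2 and 11.7 to 42.3 in the reference lines. Among closed genes at 5 CPM or more that changed alike in the 3 lines, the largest starting differences were those of CRB3, CDC42BPG, SPINT1, BSPRY, LMTK3 and LLGL2. CDC42BPG was closed in 28 of 39 settings and undecided without HPAFII replicate 2. BSPRY, a B-box protein of epithelia, had 8.42 to 14.2 CPM with OVOL2, 0.416 to 3.12 with mCherry and 6.97 to 13.9 in the reference lines, a remaining difference of -0.06 (SE 0.25).

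Genes that stayed higher after OVOL2 than in the reference lines included DTX3, MAP1LC3A, TUBA1A, RASD2, WHRN, SLC26A11, SELENOM and LOC100288175. OVOL2 had raised all of these except WHRN, for which no effect was called (adjusted p = 0.18). DTX3, a Deltex-family ubiquitin ligase, had 46, 37.7 and 33 CPM in KP4, 27.1, 26.5 and 44.7 in PANC1 and 14.5, 14.6 and 11.9 in PK45H, against 5.18 to 23.9 with mCherry and 0.321 to 1.78 in the reference lines. The difference grew from -3.69 to -4.87 (SE 0.30, adjusted p = 3.38e-13). MAP1LC3A, an autophagosome protein of the LC3 family, grew from -1.72 to -3.78. Among closed genes on this side, under the same limits, the largest starting difference was that of HEG1, a membrane receptor of the KRIT1 pathway. It fell from 22.9 to 108 CPM with mCherry to 3.10 to 15.7 with OVOL2, beside 2.96 to 11.7 in the reference lines. HEG1 was closed in 31 of 39 settings. It was undecided without HPAFII replicate 2 and under DESeq2, and kept against PATU8988S alone (-1.04). LRRC20 was the 1 reversed gene (-1.13 to 1.25), and it was not reversed once any 1 HPAFII library was left out or with untreated libraries as the start.

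Among opened genes AAAS, which encodes a nuclear pore protein, fell to 7.25 to 10.4 CPM in all 9 OVOL2 libraries from 35.7 to 90.0 with mCherry, while the reference lines had 19.2 to 71.8. Its difference went from -0.11 to 2.72 (SE 0.17, adjusted p = 8.46e-13) and was 2.70, 2.63 and 2.84 in KP4, PANC1 and PK45H. GSS (glutathione synthetase), MRPL16 and SDHAF3 opened likewise. PADI2, a peptidylarginine deiminase, and WNT9A, a Wnt ligand, opened upwards. WNT9A had 11.6 to 47.4 CPM with OVOL2, 1.24 to 5.86 with mCherry and 0.536 to 4.18 in the reference lines.

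Interferon-induced and cell cycle genes moved as well. OVOL2 raised 24 of 42 interferon-induced genes and lowered 1, beside 14.6% and 15.7% of all genes, and 7 (beside 2.54% of all genes) opened a difference with higher levels than in the reference lines, namely ISG15, IFIT1, IFIT2, IRF9, HLA-B, HLA-C and HLA-E. A further 7 that started higher in the reference lines were kept, with BST2 (5.18) at 0 to 0.741 CPM after OVOL2. HLA-C had 203 to 947 CPM with OVOL2, 65.8 to 300 with mCherry and 130 to 169 in the reference lines, and PK45H lay above the reference lines with mCherry too. By line, 19 interferon-induced genes were lower in the reference lines than in KP4, 5 than in PANC1 and 8 than in PK45H, and the median remaining difference was -0.70, 0.36 and 0.26. The effect counts were again 24 and 1 without HPAFII replicate 2, and 7 opened in that direction, with DDX58 (-1.02) in place of IRF9 (-0.95). Of 29 cell cycle genes OVOL2 lowered 24 (25 without that library) and raised none, beside 15.7% and 14.6% of all genes. TOP2A, TYMS, BIRC5 and CENPF were closed by that fall, and AURKA, PLK1, MCM4 and PCNA opened a difference with lower levels than in the reference lines. Any part of interferon or proliferation state in the other differences was not tested.

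Line by line, the epithelial lists had 52 called remaining differences in KP4, 46 in PANC1 and 43 in PK45H with higher reference levels, and the classical list 38, 37 and 35. Over all genes these counts were 1540 (10.3%), 1467 (9.82%) and 1138 (7.62%), and in the other direction 10.4%, 9.1% and 9.37% of genes. A difference was called in each of the 3 lines for 25 of the 49 kept epithelial genes and 4 of the 7 kept mesenchymal genes, beside 414 of all 852 kept genes that started higher and 181 of all 524 that started lower. Without HPAFII replicate 2 the epithelial counts by line were 52, 46 and 49, the classical counts 37, 37 and 35, and 31 of 49 kept epithelial and 4 of 13 kept mesenchymal genes were called in each line. The 2 reference lines also differed from each other, by at least 2-fold at 2027 genes (13.6%).

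The OVOL2 virus was also given without M2RTTA. No rise of OVOL2 counts was called there (-0.12, adjusted p = 0.901), and CDH1 (2.48), EPCAM (2.17) and ESRP1 (2.44) rose over mCherry without M2RTTA to remaining differences of 1.87, 1.81 and 1.85. CRB3 rose by 2.12 and kept 1.54 (adjusted p = 0.000288) in place of closing. VIM was closed (-0.68), COL1A1 was under the 2-fold limit (-0.92), and RAB25 (6.22) and LAD1 (6.53) were kept. In that arm, fitted with all 51 libraries, 58 epithelial, 12 mesenchymal and 40 classical genes were kept. With M2RTTA the same fit kept 50, 10 and 39.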

How the data were processed

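PLATE-seq counts of 51 libraries were used as deposited by the authors: raw counts per gene symbol, in 1 table of 25421 symbols, with 0 columns of values left unmatched. The submitters' processing notes name kallisto 0.44.0 and GRCh38, with no role or settings. The handling of molecular identifiers is not given in the sources used here, so counts may include amplification copies. Standard errors and intervals, like the p-values, rest on the spread between libraries of a group and not on counting error only. They do not cover the spread between lines. Groups were taken from the titles.

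In R 4.3.3, edgeR 4.0.16 fitted 33 libraries in 11 groups (OVOL2 with M2RTTA, mCherry with M2RTTA and untreated libraries of KP4, PANC1 and PK45H, and untreated HPAFII and PATU8988S) with filterByExpr, TMM scaling and the two-sided quasi-likelihood test, which kept 14941 genes. Log2 differences used a prior count of 0.125, and the 95% interval defined closed genes. A single library with at least 50 CPM and 10-fold the level of both mates was listed as an isolated value. The script was tested on simulated data.

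Genes were named by a rule: ZEB1, VIM, GRHL2, ESRP1, OVOL2, EPCAM and CDH1 always; then, at 5 CPM or more in the higher groups, the 8 largest kept genes without overlap, the 6 largest closed that changed alike in the 3 lines, the 3 largest reversed and the 4 largest opened in each direction; and per list the 2 largest kept and the 2 with the smallest p of the OVOL2 effect. Some genes so chosen are not reported here. Other list members were named as examples after their values were seen. The members, the 15 lists and this rule were chosen with earlier results of these data known. The 4 promoters shown are of genes with a single start in the RefSeq table, chosen with their outcomes known. Over the kept epithelial genes fewer than 80% had a promoter in the table, so no motif share is given for lists. Alternatives were other scaling, filters, tests (DESeq2 1.42.0), thresholds, fits, thinning, a replicate block, each reference line alone, OVOL2 without M2RTTA, and each library left out.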

Additional observations from a re-analysis of the deposited data

Results flagged for a closer look

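For 13 genes chosen by the naming rule or its lists, the OVOL2 effect (OVOL2 with M2RTTA against mCherry with M2RTTA) differed between KP4, PANC1 and PK45H by edgeR's quasi-likelihood F test with 2 degrees of freedom, adjusted over all genes tested, as it did for 4.03% of these. The effect on ISG15 was 3.64 in KP4, 0.75 in PANC1 and 1.00 in PK45H (adjusted p = 1.96e-08). IFITM2 fell by 2.94 in PANC1 and by 1.43 in PK45H, with -0.26 in KP4 (adjusted p = 0.000826). PADI2 rose by 1.43, 3.62 and 2.81 in the same order (adjusted p = 0.000853). KRT80 showed 0.35, 1.16 and 1.67 (adjusted p = 0.00365).

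Among mesenchymal genes, VIM showed -1.62, -1.92 and -0.43 in KP4, PANC1 and PK45H (adjusted p = 0.0050), TPM2 -2.21, -1.32 and -0.40 (adjusted p = 0.00533), TGFBI 0.50, -1.40 and -0.89 (adjusted p = 0.0132), ENG 1.83, -1.08 and -0.57 (adjusted p = 0.0246), QKI -0.80, 0.06 and -0.93 (adjusted p = 0.027) and NEXN -0.75, -1.62 and -2.46 (adjusted p = 0.0342). TESC, a kept gene, showed -1.83, -1.72 and 2.62 on low counts (adjusted p = 0.0155), STX3 0.73, 1.56 and 0.41 (adjusted p = 0.0248) and MAD2L2 -2.29, -2.60 and -1.31 (adjusted p = 0.0417). A mean over the lines therefore stands for unequal effects in these genes.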

How the results depend on the processing

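Counts of kept, closed and opened genes stayed within 1.5 times of those reported under DESeq2, RLE scaling, a mean count minimum of 10, no filter, robust dispersion, a prior count of 0.5, all 51 libraries and untreated libraries as the start. With 2 as the log2 threshold the counts were 458 and 313 for genes higher and lower in the reference lines, 381 and 120 kept, 10 and 6 closed, 42 and 122 opened, 29 kept and 3 closed epithelial genes, and 2 kept and 3 closed mesenchymal genes. With the adjusted p alone they were 2981 and 2833, 1818 and 1592 kept, 371 and 556 closed, 734 and 748 opened, 6 closed epithelial and 23 kept mesenchymal genes. OVOL2 without M2RTTA, fitted with all 51 libraries, gave 62 closed genes that started higher and 141 and 127 opened. It also gave 4 closed epithelial and 12 kept mesenchymal genes, and CRB3 changed sign to 1.54. With M2RTTA that fit gave 93 closed, 311 and 380 opened, 11 closed epithelial and 10 kept mesenchymal genes. Thinning to the smallest total gave 340 kept and 82 closed genes that started lower and 6 closed mesenchymal genes. HPAFII alone gave 6 closed mesenchymal genes. PATU8988S alone gave 839 kept genes that started lower, 3 closed epithelial, 23 kept and 3 closed mesenchymal genes, and NRP2 changed sign to -0.012. The cause was not tested. Leaving out each of 24 libraries gave 1193 to 1397 and 1104 to 1204 differences, 803 to 926 and 505 to 609 kept, 82 to 106 and 120 to 149 closed, 267 to 349 and 351 to 401 opened, 47 to 51 kept and 8 to 12 closed epithelial, 7 to 13 kept and 7 to 12 closed mesenchymal, and 38 to 39 kept classical genes. Same-numbered libraries did not deviate together (165 pairs, correlation -0.18 to 0.15), and the replicate block gave 836 and 505 kept and 96 and 134 closed genes. The fit of 15 libraries gives no kept or closed genes, since it has no mCherry libraries.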
